A study of Mus musculus with 6 samples.

Results

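The macrophages of the mouse pancreas on day 4 after caerulein were set against those of mock-injected mice. The comparison uses 2 of the 6 libraries of a time course, 1 pooled library a side, and 10000 of the 31617 genes in the table, those with the highest mean over all 6 libraries. The study sequenced RNA of macrophages sorted from the pancreas during acute pancreatitis, with a mock library as day 0 and libraries of days 1, 3, 4, 5 and 7. All mice were wild-type Balb/c and were fasted overnight before 10 hourly intraperitoneal injections, of saline for mock and of caerulein for the other groups, at a dose given in the design text as 100 mg per kg. Time was counted in days from the start of the injections. The design text names the other days, so day 4 rests on its own sample's labels, and mock carries the treatment label none. Leukocytes were enriched with beads against CD45.2 and sorted as CD45+CD11b+F4/80+ cells, and each library was pooled from more than 3 mice. With 1 library a side no difference has a replicate check, and no p-value is given for any gene. Variation between pools of mice cannot be told apart from the effect of caerulein.

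Caerulein is an analogue of the gut hormone cholecystokinin, and repeated injections overstimulate the acinar cells, which make the digestive enzymes, until part of them die. Macrophages that take up dying cells receive their membrane lipid and cholesterol. They break it down in acid lysosomes with cathepsins, lipases and other hydrolases, store fatty acids and cholesterol esters in droplets, and pass excess cholesterol to apolipoprotein E through the ABC transporters. In many injured tissues macrophages in that situation carry a shared programme around the lipid-sensing receptor Trem2, with Gpnmb, Fabp5, Spp1, Cd63 and lysosomal genes. Sterol left in the cell switches on the liver X receptors and holds back the SREBP factors that drive cholesterol synthesis. No lipid was measured in these cells, so the description "lipid-loaded" rests on transcripts alone. The comparison and the gene lists were chosen with earlier results of these data known. Their values therefore describe that label and do not test it.

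The day 4 library was rich in transcripts of that programme and poor in transcripts of cell division, of the interferon response, of monocytes and of acinar cells. The log2 ratio of day 4 to mock was taken between normalised read counts, each with a pseudocount of 17.8 added, which understates the ratio of low genes. A difference of at least 2-fold was counted as higher or lower. Higher in the day 4 library were 331 of 10000 genes (3.31%), and lower were 811 (8.11%), together 11.4%. The median ratio over all of them was -0.01, and the middle quartiles ran from -0.36 to 0.29. At 4-fold there were 42 genes higher and 256 lower, and at 16-fold 5 higher and 24 lower. The split depended on scaling. With columns scaled to equal totals it was 224 higher and 1029 lower, and the median of all genes was lower by 0.18, against which every ratio there is to be read. With quantile normalisation it was 466 higher and 719 lower. The day 4 library was the highest of the 6 for 1245 genes (12.4%) and the lowest for 1900 genes (19.0%).

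**Figure D1:**
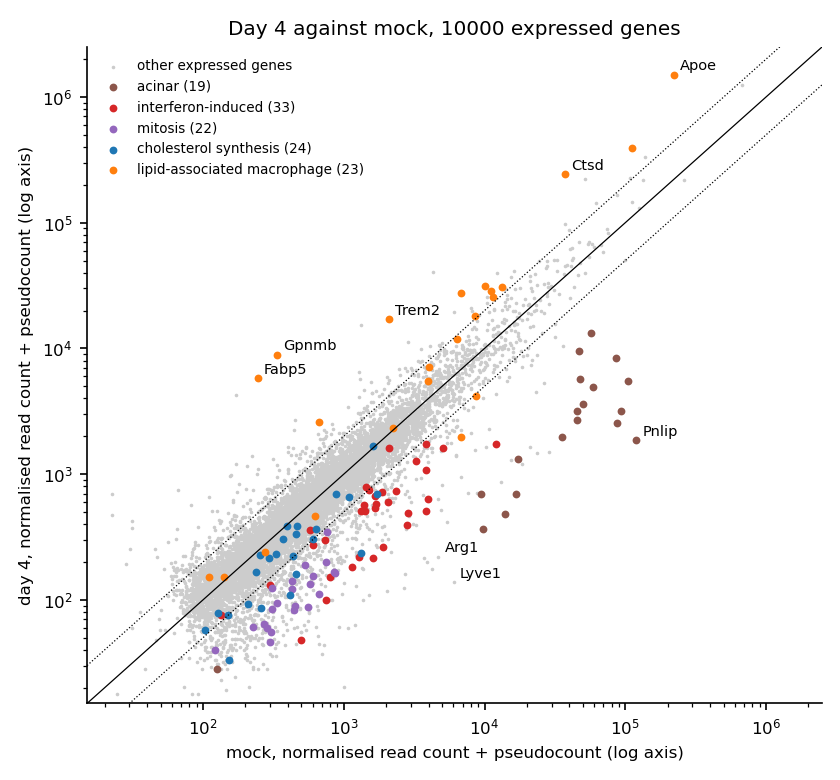
Normalised read count of each of 10000 expressed genes in mock (x axis) and on day 4 (y axis), both with the pseudocount and on log axes; the solid line marks equal values, the dotted lines 2-fold, and colours mark 5 gene lists. Gpnmb, Fabp5 and Trem2 lie far above the 2-fold line, acinar genes far below it, and all 22 mitosis genes lie below it.

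Day 4 had the fewest reads, 14853084 against 17598031 in mock, and between 16200131 and 25726455 in the other libraries. A few genes took a large share of it. Apoe took 7.85% of day 4 reads and 1.32% of mock reads, and the 10 most abundant genes took 24.9% on day 4 and 11.9% in mock. At the median over expressed genes the 95% counting interval of the log2 ratio reached 0.20 to either side. Such an interval holds the error of counting and nothing else. Without molecular identifiers 1 molecule can give several reads, so the interval can be too narrow even for that error.

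The cells of the day 4 library carried the transcripts of macrophages, with 1 of the 3 genes of the sort low. In normalised counts Ptprc, the CD45 gene, stood at 11870.5 in mock and 9425 on day 4, and Adgre1, the F4/80 gene, at 11750.1 in mock and 11541 on day 4, ratios of -0.33 and -0.03. Itgam, which encodes CD11b, stood at 1900.4 in mock and 2627, 1409, 678, 687 and 1097 on days 1, 3, 4, 5 and 7. Day 4 was thus the lowest of the 6 for Itgam, level with day 5, at a ratio of -1.46. In bulk RNA fewer cells of a type and less RNA per cell cannot be told apart. Of 17 core macrophage genes 4 stood 2-fold or more above mock and 0 below, with a median of 0.43 beside 0.92 on day 5. The 4 were Mpeg1, a pore-forming protein of phagocytes, at 1.28, Tyrobp at 1.09, Mertk at 1.04 and Cd68 at 1.02. The last 3 stood below 2-fold with equal totals. Csf1r, the receptor of the macrophage growth factor, was at 23532 in mock and 31779 on day 4, a ratio of 0.43, and C1qa, C1qb and C1qc were between 0.10 and 0.62. Fcgr1, the high-affinity IgG receptor, was at -0.56.

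The lipid-associated macrophage genes were high as a group. Of 23 members, 13 were 2-fold higher or more and 2 as far below mock, against 3.31% and 8.11% of all genes. Their median ratio was 1.17 beside -0.01 for all genes, and it was 0.98 with equal totals. Day 4 held the highest value of the 6 libraries for 12 of them. The counts of any list are to be read beside the shares of all genes. These were 3.31% higher, 8.11% lower, 12.4% highest on day 4 and 19.0% lowest on day 4. Counts of a list cover the members among the 10000 expressed genes, here 23 of 23. Lists that lost members to that filter include efflux with 16 of 19 kept, growth factors with 17 of 22, complement with 14 of 18, CXC chemokines with 9 of 13 and endothelial markers with 5 of 11. As a share of all reads the lipid-associated list summed to 2.79% in mock, 12.4% on day 4 and 10.4% on day 5. On days 4 and 5 most of that sum was Apoe.

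Gpnmb, a glycoprotein of lysosomal membranes, stood at 318 in mock and 4614, 4159, 8911, 4817 and 483 on days 1, 3, 4, 5 and 7. Every library from day 1 to day 5 stood far above mock and day 7, and day 4 was the highest. Its log2 ratio of 4.73, or 26.6-fold, was the largest of all genes but the predicted gene Gm14461, with a counting interval of 4.65 to 4.97. Fabp5, a fatty acid-binding protein with several near-identical copies in the genome, stood at 226 in mock and 2569.5, 2304, 5755, 998 and 163 on days 1, 3, 4, 5 and 7. Day 4 was the highest and over 2-fold above the next library, at a ratio of 4.56 to mock. Trem2, the receptor itself, stood at 2072 in mock and 2973, 11772, 17157, 8772 and 3135 on days 1, 3, 4, 5 and 7, a ratio of 3.04 with an interval of 2.98 to 3.12. It was low in mock and on days 1 and 7 and highest on day 4, while its signalling partner Tyrobp was at 8484 in mock and 18126 on day 4.

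Apoe, the lipid carrier that accepts effluxed cholesterol, stood at 222184 in mock and 168971, 561567, 1508859, 1420534 and 577517 on days 1, 3, 4, 5 and 7. Days 4 and 5 were close to each other and far above the rest, and the day 4 ratio to mock was 2.76. It was 1.65 with quantile normalisation, which sets the top ranks of all libraries to the same values. Cd63, a tetraspanin of late endosomes, had 6765 in mock and 27574 on day 4 and was highest on day 4, a ratio of 2.02. Igf1, the insulin-like growth factor that macrophages secrete during repair, stood at 647 in mock and 206, 554, 2596, 922 and 753 on days 1, 3, 4, 5 and 7. Its day 4 value was over 2-fold above every other library, at a ratio of 1.97 to mock. Spp1, which encodes osteopontin, stood at 10118 in mock and 142280.2, 202196, 31164, 8256 and 4619 on days 1, 3, 4, 5 and 7. For Spp1 the peak lay on days 1 and 3, and the day 4 library was already far below them at a ratio of 1.62 to mock.

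Lgals3, or galectin-3, was at 1.23, and Plin2, the coat protein of lipid droplets, at 1.17, with day 1 above day 4 for both. Members of the list that stood within 2-fold of mock were Lipa, the acid lipase of lysosomes, at 0.91, Clec7a at 0.81, Cd9 and Cst7 both at 0.48, Fabp4 at 0.09, Axl at 0.05, Itgax at -0.20 and Csf1 at -0.42. The members on the low side were Cd36 and Lpl. Cd36, a scavenger receptor for oxidised lipoprotein and fatty acids, stood at 6832 in mock and 3096, 2989, 1962, 2806 and 3939 on days 1, 3, 4, 5 and 7, lowest on day 4, at -1.79. Lpl, the lipase that frees fatty acids from lipoproteins, was at 8613 in mock and 4197 on day 4, the lowest of the 6, at -1.03, and at -0.95 with quantile normalisation. Set against the label, Trem2, Gpnmb, Fabp5 and Apoe were high and these genes of lipid entry low.

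**Figure D2:**
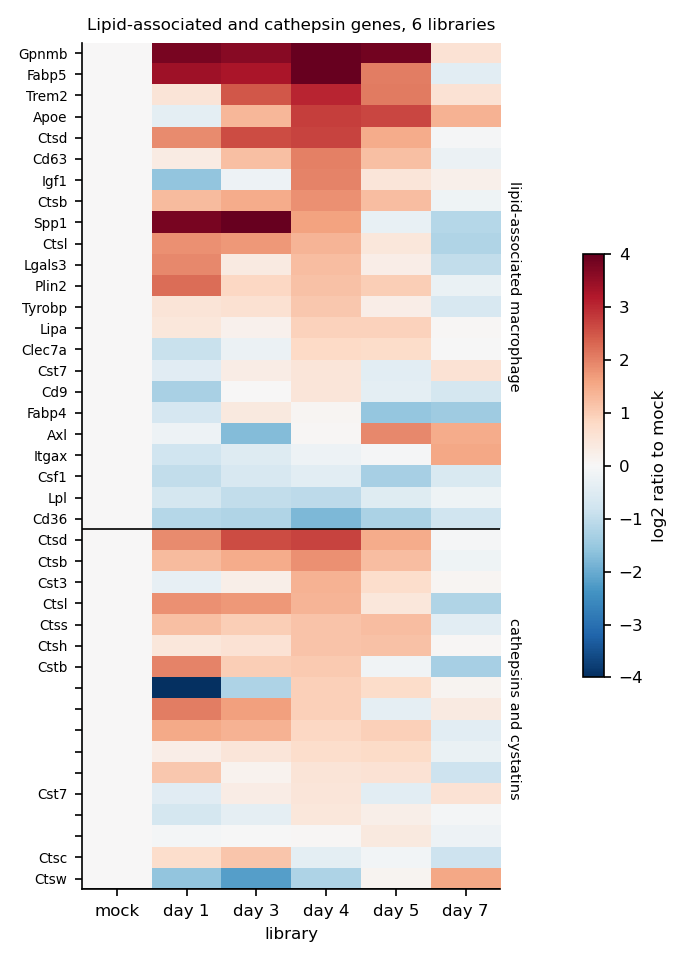
Log2 ratio to mock (colour, with the scale ending at -4 and 4) of the lipid-associated macrophage genes and of the cathepsins and cystatins (rows, ordered by the day 4 ratio, labelled where named in the text) in the 6 libraries (columns). Gpnmb and Fabp5 reach past the end of the scale on day 4, Spp1 is strongest on days 1 and 3, and Cd36 is blue in all 5 caerulein libraries.

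Cathepsins, the proteases of lysosomes, were high in the same library. Of 17 cathepsins and cystatins 7 were at least 2-fold higher and 1 lower, with a median of 0.95. Ctsd, the aspartic protease, stood at 37171 in mock and 138599, 227422, 243415, 103621 and 36153 on days 1, 3, 4, 5 and 7, a ratio of 2.71. It was high on days 3 and 4, lower on days 1 and 5, and at mock level on day 7. Ctsb was at 112024 in mock and 394952 on day 4, a ratio of 1.82 that came to 0.98 with quantile normalisation, and Ctsl at 1.35. Ctss and Ctsh were both at 1.14, and the inhibitors Cst3 and Cstb at 1.39 and 1.04. Ctsc, which activates granule proteases, was at -0.38. The member that was lower was Ctsw, a cathepsin of cytotoxic lymphocytes, at -1.22, beside an NK cell list with 7 of 8 members lower, and their part in that value was not tested.

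Other lysosomal genes stood mildly above mock, most of them within 2-fold. Among 40 hydrolases and membrane proteins 5 were at least 2-fold higher and 0 lower, beside 3.31% and 8.11% of all genes. Their median was 0.56, and 33 had a ratio above 0. Over the alternatives the median ran from 0.36 to 0.62. Among the 5 were Npc1, which exports cholesterol from lysosomes, at 1.80, the hexosaminidase chain Hexa at 1.06, the galactosylceramidase Galc at 1.62 and the heparan sulphatase Sgsh at 1.62. Npc1 stood at 319.9 in mock and 703, 524, 1157, 558 and 301 on days 1, 3, 4, 5 and 7, highest on day 4. Lamp1, the main protein of the lysosomal membrane, was at 31153 in mock and 50394 on day 4, a ratio of 0.69. The arylsulphatase Arsa was at -0.50.

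The proton pump acidifies the lysosome, and TFEB, TFE3 and MITF are transcription factors of lysosomal genes. Of 20 genes of the pump and these factors 2 were at least 2-fold higher and 0 lower, with a median of 0.47. Atp6v0d2, a pump subunit of osteoclasts and some macrophages, stood at 64.9 in mock and 40.6, 83.1, 555, 181 and 112 on days 1, 3, 4, 5 and 7. Its day 4 value was over 2-fold above every other library and 6.93-fold above mock, a ratio of 2.79, while its widely expressed counterpart Atp6v0d1 was at 0.26. Atp6v1a, the catalytic subunit, stood at 2018 in mock and 4260.4, 3591, 5872, 3278 and 1839.6 on days 1, 3, 4, 5 and 7, a ratio of 1.53. Mitf was at 0.89, Tfeb at 0.25 and Tfe3 at -0.33.

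Promoter sequence was read for these genes because TFEB and its relatives are known to bind the CLEAR element, whose core is TCACGTGA and holds the E-box CACGTG. RefSeq windows (GRCm38.p6, 250 bases before to 50 after a start) were searched on both strands for exact letters. The 10000 expressed genes had windows for 7658. The core occurred in 3 of 36 windows of the lysosomal list (8.33%), 2 of 14 of cathepsins and cystatins (14.3%) and 3 of 22 of the proton pump list (13.6%), beside 2.03% of the windows of expressed genes and 0.974% of all 32851 windows. Among windows of the genes at least 2-fold higher on day 4 it occurred in 1.98%. The E-box, which every core match also counts as, occurred in 9 of 36, 5 of 14 and 4 of 22 windows of those lists and in 10.4% of those of expressed genes. The lists are short, a match is a description of letters, and it shows no binding. The 150 bases before the start of Ctsd, Atp6v1a and the lysosomal membrane gene Cln3 (ratio 0.69) are shown 5′ to 3′ on the gene's strand, with the core in capitals.
Ctsd (chr7:142387828-142387977, minus strand): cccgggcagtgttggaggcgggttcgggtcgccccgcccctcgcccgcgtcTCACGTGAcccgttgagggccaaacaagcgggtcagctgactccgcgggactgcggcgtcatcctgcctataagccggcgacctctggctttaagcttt
Atp6v1a (chr16:44139260-44139409, minus strand): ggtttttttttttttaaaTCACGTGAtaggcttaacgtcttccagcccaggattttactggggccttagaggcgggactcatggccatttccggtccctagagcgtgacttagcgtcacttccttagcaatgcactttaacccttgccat
Cln3 (chr7:126583237-126583386, minus strand): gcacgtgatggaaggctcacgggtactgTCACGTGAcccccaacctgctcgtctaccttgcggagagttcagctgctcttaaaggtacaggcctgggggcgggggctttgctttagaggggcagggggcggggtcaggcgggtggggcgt

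Genes of fatty acid entry were split. Of 18 uptake genes 3 were higher by 2-fold or more and 4 lower, beside 3.31% and 8.11% of all genes. Their median was -0.36, and day 4 was the lowest library for 8, against 19.0% of all genes. Slc27a1, a fatty acid transport protein, stood at 204 in mock and 1151, 1001, 1369, 1696 and 907 on days 1, 3, 4, 5 and 7, above mock in all 5 caerulein libraries, at a day 4 ratio of 2.64. Fabp3 was at 1.25. Against them Msr1, the class A scavenger receptor, stood at 7673 in mock and 20400.1, 11913, 3208, 4028 and 2415 on days 1, 3, 4, 5 and 7, a ratio of -1.25, and Cd36 and Lpl are given above.

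Storage genes leaned to the other side, with 4 of 16 at least 2-fold higher, 1 lower and a median of 0.33. Nceh1, which hydrolyses cholesterol esters, was at 1269 in mock and 3805, 2961, 4107, 2338 and 1328 on days 1, 3, 4, 5 and 7, and Soat1, which makes them, at 1587 in mock and 3505, 2323, 3733, 2859 and 1552 on days 1, 3, 4, 5 and 7. Both were highest on day 4, at ratios of 1.68 and 1.22, with day 1 next. Plin2 and the droplet protein Hsd17b11 were at 1.17 and 1.18, and came to 0.98 with equal totals and 0.96 with 4 times the pseudocount. The triglyceride lipase Pnpla2 was at 0.35, and the acyltransferase Agpat9 was lower at -1.60. Of 20 genes of mitochondrial fatty acid oxidation none was past 2-fold, and their median of 0.12 turned to -0.06 with equal totals.

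Cholesterol genes fell into opposite groups. Among 16 genes of efflux and the liver X receptors 5 were at least 2-fold higher and 1 lower, with a median of 0.58. On days 1, 3, 5 and 7 the median of this efflux list was 0.11, 0.11, 0.82 and -0.05, so day 5 stood above day 4. Of 24 genes of synthesis and its SREBP control 0 were 2-fold higher and 7 lower, with a median of -0.77, and day 4 was the lowest of the 6 libraries for 15 of them against 19.0% of all genes. The median of the synthesis list ran from -0.96 to -0.58 over the alternatives. Apoe, Npc1 and Lipa belong to more than 1 list.

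Abca1, the transporter that loads cholesterol onto apolipoproteins, stood at 1060.0 in mock and 452, 1988, 3419.7, 2296 and 845 on days 1, 3, 4, 5 and 7. It was highest on day 4, at a ratio of 1.67 with an interval of 1.59 to 1.79. Abcg1 stood at 734 in mock and 1533, 773, 2004, 2143 and 424 on days 1, 3, 4, 5 and 7, with days 4 and 5 close together and a day 4 ratio of 1.43. Mylip, a ubiquitin ligase and target of the liver X receptors, was at 484 in mock and 1515 on day 4, a ratio of 1.61. The receptor gene Nr1h3 itself was at 0.59 and Nr1h2 at -0.28. Other known targets stood elsewhere: Pltp, the phospholipid transfer protein, was at 0.85, Srebf1 at -0.54 and Scd1, the fatty acid desaturase, at 214 in mock and 40.6, 33.8, 16.8, 20.8 and 210.3 on days 1, 3, 4, 5 and 7. Scd1 was low on days 1, 3, 4 and 5 and at mock level on day 7, a day 4 ratio of -2.74.

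On the synthesis side Sqle, squalene epoxidase, stood at 398 in mock and 1114, 315, 90.6, 283 and 476 on days 1, 3, 4, 5 and 7. Its day 4 value was over 2-fold below every other library, at a ratio of -1.94 to mock. Srebf2, the transcription factor of the pathway, was at 1702 in mock and 673 on day 4, lowest of the 6, a ratio of -1.32. Fdft1 was at -1.51, the cholesterol carrier Stard4 at -1.58 and Idi1 at -1.18, or -0.85 with 4 times the pseudocount. Hmgcs1, the synthase of an early step, was within 2-fold at -0.45. On day 1 the same list stood above mock, at a median of 0.66. The sterol regulatory element that SREBP binds, searched as TCACNCCAC, occurred in 1 of 22 windows of the synthesis list and in 1.14% of those of expressed genes.

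**Figure D3:**
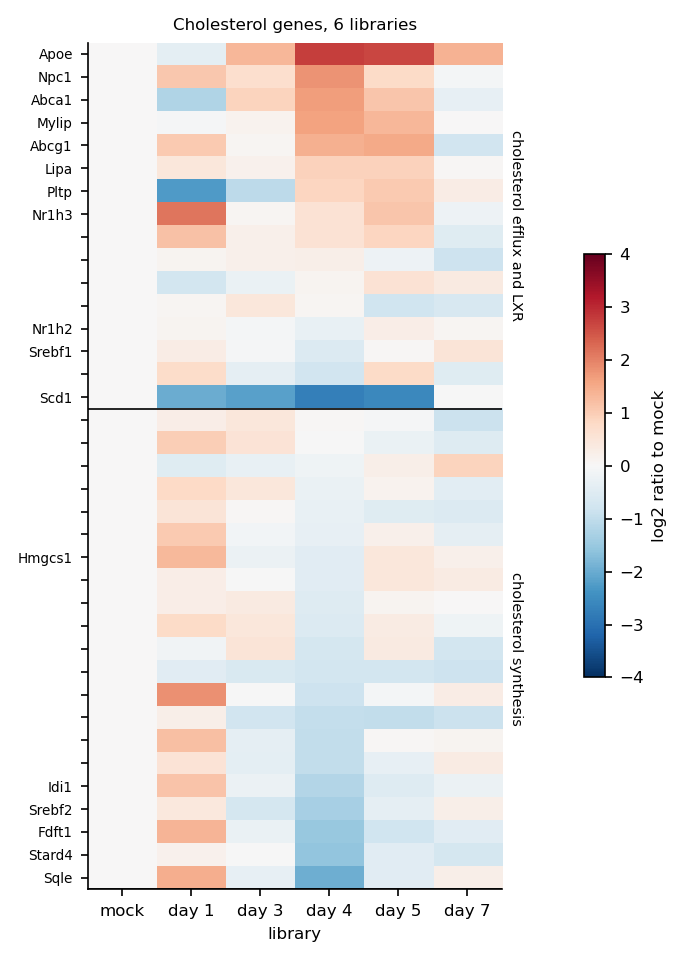
Log2 ratio to mock (colour) of genes of cholesterol efflux and the liver X receptors (upper block) and of cholesterol synthesis (lower block), ordered by the day 4 ratio, in the 6 libraries; members not named in the text carry no label, and 3 synthesis genes are not drawn. In the day 4 column Apoe, Npc1, Abca1, Mylip and Abcg1 are red and most of the synthesis genes blue, while day 1 is mostly red in the lower block.

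Beyond these lists, the highest genes of the day 4 library were of mixed function. Syngr1, known as a protein of synaptic vesicles, stood at 154 in mock and 2179, 2699, 4231, 1929 and 395 on days 1, 3, 4, 5 and 7, a ratio of 4.63. Htr2b, a serotonin receptor, stood at 4.77 in mock and 335, 604, 458, 53 and 11.8 on days 1, 3, 4, 5 and 7. It had few reads in mock and was high from day 1 to day 4 and down again on days 5 and 7. Its ratio of 4.40 is shrunk by the pseudocount, and the counting interval without it was 5.35 to 8.22. Cdo1, cysteine dioxygenase, was at 13.4 in mock and 406 on day 4, a ratio of 3.77, with its peak on day 1. Ms4a7, a membrane protein of macrophages, stood at 4292 in mock and 17973, 19486, 40439, 43214 and 8671 on days 1, 3, 4, 5 and 7, with days 4 and 5 highest and a day 4 ratio of 3.23. Mmp27, a stromelysin-like metalloproteinase, was at 12.4 in mock and 237 on day 4, and the creatine transporter Slc6a8 at 10.5 in mock and 175 on day 4, ratios of 3.08 and 2.77.

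A small number of genes set day 4 apart from every other library and not from mock alone. In 26 genes (0.260%) the day 4 value was at least 2-fold above all 5 other libraries, and in 30 (0.300%) at least 2-fold below. Cnrip1, which binds the cannabinoid receptor, stood at 158 in mock and 40.6, 153, 706, 141 and 118 on days 1, 3, 4, 5 and 7, a margin of 2.05 on the log2 scale over the next library, which was mock. Rapsn, which anchors acetylcholine receptors at the muscle synapse, stood at 48.7 in mock and 29.5, 176, 725, 202 and 108 on days 1, 3, 4, 5 and 7, a margin of 1.76 over day 5. Cd28, the costimulatory receptor of T cells, stood at 294 in mock and 67.7, 125, 1307, 358 and 337 on days 1, 3, 4, 5 and 7, a margin of 1.82. Beside it the T cell receptor complex gene Cd3e was at 399 in mock and 91.9 on day 4, a ratio of -1.93. Of 10 expressed T cell markers 6 were lower and Cd28 alone higher, and none was at 0 in either library. The part of T cells in the Cd28 value was not tested. Others in this set were Aph1c, a gamma-secretase subunit, at a ratio to mock of 1.89, the ubiquitin ligase Fbxo32 at 2.04, the kinesin Kif13b at 1.68 and the redox genes Gpx3 and Gstm1, with Atp6v0d2, Igf1 and Fabp5 as above.

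On the low side of that set Lyve1, a hyaluronan receptor of resident macrophages and lymphatic endothelium, stood at 6005 in mock and 729.8, 675, 122, 621 and 1779 on days 1, 3, 4, 5 and 7. Day 4 was 43.2-fold below mock, a ratio of -5.43, and over 4-fold below the next lowest library, which was day 5. Ly6a, Spon1 and Plac8 were at -2.91, -3.17 and -3.23 to mock, and all 3 were highest on day 1. Timeless and Mcm5, of DNA replication, were at -2.31 and -2.92. The amino acid transporter Slc7a5 was at -1.76, and the lipid flippase Atp10a at -1.63, or -0.89 with 4 times the pseudocount.

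Growth factors were among the higher groups. Of 17 expressed members 8 were at least 2-fold higher and 0 lower, with a median of 0.59, which came to 0.17 with no filter on low genes. The list stood higher on day 5, at a median of 0.85. Gdf15, a stress-induced member of the TGF-beta family, stood at 155 in mock and 88.6, 232, 1190.4, 569.9 and 95.4 on days 1, 3, 4, 5 and 7, highest on day 4 and over 2-fold above day 5, a ratio of 2.81. Gdf3 was at 1.45, and the platelet-derived factors Pdgfc and Pdgfa at 1.40 and 1.30. Hgf, Vegfb and the receptor Tgfbr1 were at 1.37, 1.19 and 1.28. Vegfa, the main vascular factor, was at -0.37 and Tgfb1 at -0.60, lowest of the 6 libraries.

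Matrix genes passed 2-fold in both directions, while their median was on the low side at -0.67. Above mock by that much stood 4 of 19 and below it 8. Both counts exceeded the shares of all genes, 3.31% and 8.11%. Fn1, or fibronectin, stood at 10193 in mock and 2453, 13266, 1625, 328 and 3916 on days 1, 3, 4, 5 and 7, a ratio of -2.64, with mock and day 3 high and days 4 and 5 low. Timp1, a metalloproteinase inhibitor, was at 213 in mock and 418, 1311, 51.8, 9.36 and 18.6 on days 1, 3, 4, 5 and 7, a ratio of -1.73 after a peak on day 3. Mmp8, Mmp9, Mmp12 and Mmp13 lay between -1.67 and -1.45. On the high side, with Spp1 and Mmp27, was the membrane collagenase Mmp14 at 1.03, or 0.84 with equal totals. Mmp2 was at -1.23. Fibroblast markers, collagen genes among them, summed to 4611 in mock and 899.6, 23694, 1347, 2919 and 11234 on days 1, 3, 4, 5 and 7. They were highest on day 3, as Fn1 and Timp1 were, and their part in the matrix values was not tested.

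Iron and redox genes held a few high members while their medians were near 0. Of 17 iron genes 3 passed 2-fold upward and 2 downward (median -0.08). The ferritin chains Ftl1 and Fth1, which store iron, were at 1.29 and 1.08, but at 0.00 and 0.43 with quantile normalisation. Spic, the transcription factor of iron-recycling macrophages, was at 147 in mock and 54.1, 50.7, 357, 244 and 122 on days 1, 3, 4, 5 and 7, highest on day 4 with a ratio of 1.19. Steap4 and Steap3 were at -1.72 and -1.21, and haem oxygenase, Hmox1, at -0.86. Among 20 redox genes 3 were higher and 0 lower, and the median of 0.03 turned negative with equal totals. Gpx3, the secreted glutathione peroxidase, stood at 1274 in mock and 477, 2178, 6438, 2749.7 and 1679 on days 1, 3, 4, 5 and 7, over 2-fold above every other library, a ratio of 2.32. Gstm1, a glutathione transferase with close paralogs, stood at 1568 in mock and 799.9, 1452, 4413, 1593 and 1364 on days 1, 3, 4, 5 and 7, a ratio of 1.48, and Gsto1 at 1.09.

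Surface receptors differed in both directions. Of 16 purinergic and microglia-type genes 5 stood 2-fold or more above mock and 2 below, with a median of 0.53 beside 0.96 on day 5. Gpr34, a receptor for lysophosphatidylserine, stood at 1293 in mock and 62.8, 2389.7, 5646, 3377 and 1626 on days 1, 3, 4, 5 and 7, a ratio of 2.11. It was lowest on day 1 and highest on day 4. Olfml3 was at 2.34, with its peak on day 3, and the adenosine receptors Adora2a and Adora2b were lower at -1.93 and -1.54. In the MS4A family Ms4a7, Ms4a14 (2.47) and Ms4a4a (1.11) stood higher, and Ms4a1, Ms4a4c, Ms4a8a and Ms4a4b lower, at -4.25, -2.15, -2.01 and -1.86. Ms4a1 is CD20 of B cells, and reads shared between members of the family make these values uncertain.

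Among 21 inhibitory and paired receptors 6 were higher and 7 lower (median -0.16). Cd200r4 was at 1.70, Cd33 at 1.26 and Cd300a at 1.17. Trem1, which amplifies inflammation, stood at 1714 in mock and 1448, 868, 247, 73.8 and 289.7 on days 1, 3, 4, 5 and 7, opposite in direction to Trem2, at -2.71. Pilra was at -2.33 and the sialoadhesin Siglec1 at -1.51. Of 17 C-type lectins 3 were higher and 4 lower, with a median of 0.05 that changed sign with equal totals. Clec4n, or Dectin-2, was at 1.08, and Clec4e, or Mincle, at -1.61. Fc receptors had 0 members higher and 2 lower of 9, and those lower were Fcer2a and Fcmr, both abundant in B cells.

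Interferon-induced genes were low together. Of 33 members 29 were at least 2-fold lower in the day 4 library and none higher, with a median of -1.63, and it ran from -1.82 to -1.54 over the alternatives. The other 4 were Irf9, Gbp5, Xaf1 and Parp14, between -0.86 and -0.39. Irf7, the factor that amplifies the interferon response, stood at 11969.8 in mock and 78765, 2159, 1723, 41923 and 10833 on days 1, 3, 4, 5 and 7. Day 1 was the highest by far, day 5 the next, and days 3 and 4 stood about equally far below mock, at -2.78 on day 4. Ifit3 stood at 3838 in mock and 22520.5, 409.9, 489, 11134 and 1636 on days 1, 3, 4, 5 and 7, a ratio of -2.93, and Isg15, the ubiquitin-like modifier, at 1119 in mock and 7591, 266, 163, 1623 and 378 on days 1, 3, 4, 5 and 7, a ratio of -2.65. Iigp1, an immunity-related GTPase, was lowest of the list at -3.39. Mock was not at the floor for these genes: Rsad2, or viperin, had 1896 in mock and 243 on day 4, a ratio of -2.87.

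Promoters were read for this list because the factor that interferon activates binds the interferon-stimulated response element, searched on both strands by its core, GAAA at both ends of any NN. The letters occurred in 14 of 28 windows of the interferon-induced list, beside 3.30% of windows of expressed genes and 3.44% of all. Windows of genes at least 2-fold lower on day 4 held them in 8.16%, and windows of genes at least 2-fold higher in 3.63%. The 150 bases before the start of Isg15 and Ifit1 (ratio -2.91) follow, with each match, or its reverse complement, in capitals.
Isg15 (chr4:156200819-156200968, minus strand): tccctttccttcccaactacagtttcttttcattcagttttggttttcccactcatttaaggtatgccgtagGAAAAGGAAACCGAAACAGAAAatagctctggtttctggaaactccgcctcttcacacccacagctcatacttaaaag
Ifit1 (chr19:34640739-34640888, plus strand): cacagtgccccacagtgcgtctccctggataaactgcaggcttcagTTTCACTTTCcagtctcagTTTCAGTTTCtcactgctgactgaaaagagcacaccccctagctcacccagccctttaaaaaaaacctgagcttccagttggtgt

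Antigen presentation by class I leaned low and class II did not. Of 15 class I and peptide loading genes 2 were at least 2-fold lower, the peptide transporter Tap1 at -1.28 and the regulator Nlrc5 at -1.24, or -0.96 with 4 times the pseudocount. Their median was -0.55, with H2-D1 at -0.23 and B2m at 0.14. All 11 class II genes were within 2-fold of mock, and the median of 0.07 turned to -0.12 with equal totals. Cd74, the class II chaperone, stood at 124549 in mock and 20774, 28677, 130869.6, 136059 and 197319 on days 1, 3, 4, 5 and 7. It was low on days 1 and 3, near mock on days 4 and 5 and highest on day 7. H2-Aa, a class II chain, was also low on days 1 and 3, at 7739 in mock and 1209.7, 2285, 10756, 8325 and 10431 on days 1, 3, 4, 5 and 7, and day 4 was its highest library, at a ratio of 0.47.

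Genes of cell division were low throughout. All 22 mitosis genes were at least 2-fold lower in the day 4 library, with a median of -2.02, and of 22 replication genes 19 were, with a median of -1.56. With 4 times the pseudocount Bub1 was at -0.91 and stood within 2-fold. Mki67, the proliferation antigen, stood at 738 in mock and 77.5, 1527, 329.9, 149.8 and 361 on days 1, 3, 4, 5 and 7, a ratio of -1.12. Top2a stood at 649 in mock and 91.1, 1952, 94.5, 149.8 and 365 on days 1, 3, 4, 5 and 7, and Ccnb1, the mitotic cyclin, at 413 in mock and 46.8, 1971, 104, 72.8 and 187 on days 1, 3, 4, 5 and 7. In each of them mock and above all day 3 were high and day 1 low, and day 4 was below mock. Among replication genes Uhrf1 and Mcm5 were at -2.95 and -2.92, and the replicative helicase subunits Mcm2, Mcm3, Mcm4, Mcm6 and Mcm7 between -2.56 and -1.42. Mcm5 stood at 1337 in mock and 479, 2462, 162, 446 and 709 on days 1, 3, 4, 5 and 7, over 2-fold below every other library on day 4. Those within 2-fold were Pcna, the sliding clamp, at -0.30, Rfc3 at -0.50 and Cdt1 at -0.99.

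The cell cycle homology region, to which repressor complexes bind in resting cells, was searched as TTTGAA on both strands. The letters occurred in 14 of 19 windows of the mitosis list (73.7%) and in 2 of 22 of the replication list (9.09%), beside 12.3% of windows of expressed genes. The match is short and frequent, at 17.9% of all windows. The 150 bases before the start of Cdk1 (ratio -1.49) and Cdc20 (ratio -1.97) show it in capitals.
Cdk1 (chr10:69352913-69353062, minus strand): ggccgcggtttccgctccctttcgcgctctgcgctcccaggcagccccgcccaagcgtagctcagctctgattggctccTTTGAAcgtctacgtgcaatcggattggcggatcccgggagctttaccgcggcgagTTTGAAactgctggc
Cdc20 (chr4:118437344-118437493, minus strand): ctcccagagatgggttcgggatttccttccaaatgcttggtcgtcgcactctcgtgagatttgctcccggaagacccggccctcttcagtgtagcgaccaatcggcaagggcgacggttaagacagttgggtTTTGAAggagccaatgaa

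Monocyte transcripts were scarce. Of 14 monocyte genes 9 were at least 2-fold lower and none higher, with a median of -1.56. Ly6c2, which marks inflammatory monocytes and has the near-identical copy Ly6c1, stood at 2671 in mock and 37117, 234, 106, 336 and 782 on days 1, 3, 4, 5 and 7. Day 1 was high, mock lower by an order of magnitude and day 4 the lowest, at -4.44. Ly6c1 had 4249 in mock and 157 on day 4, a ratio of -4.61. Plac8 was at -3.23 and the matrix proteoglycan Vcan at -2.97. Ccr2, the receptor that brings monocytes into tissue, was at 18326 in mock and 16742 on day 4, a ratio of -0.13.

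Transcripts of resident macrophages were lower as well. Of 18 members 8 were at least 2-fold lower and 1 higher, with a median of -0.76. On days 1, 3, 5 and 7 that median was lower still, at -1.41, -0.85, -0.94 and -0.88. Timd4, a receptor for phosphatidylserine on dying cells, stood at 2704 in mock and 329, 103, 142, 546 and 1234 on days 1, 3, 4, 5 and 7, a ratio of -4.09, with days 3 and 4 lowest. Marco, Cd209g and Cd209f were at -3.34, -2.32 and -1.78. Folr2 and Mrc1, which also mark resident cells, were at -0.22 and -0.03. The member that was higher was Sepp1, the selenium carrier, at 51332 in mock and 17680.4, 81738, 222588, 102273 and 48992 on days 1, 3, 4, 5 and 7, highest on day 4 with a ratio of 2.12. Of 5 expressed endothelial markers 3 were lower and 0 higher, Plvap at -3.68, and the part of endothelial cells in the Lyve1 value was not tested.

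Uptake of dead cells showed no common direction, with 3 of 18 higher, 2 lower and a median of 0.16 that turned negative with equal totals. Mertk was at 460.3 in mock and 759, 647, 968, 1134 and 429.9 on days 1, 3, 4, 5 and 7, Havcr2 at 1.10 and the integrin chain Itgav at 1.04, all 3 below 2-fold with equal totals. Stab1 and Mfge8 were at 0.67 and 0.28. Complement genes had 0 of 14 higher and 5 lower. C3 stood at 1694 in mock and 1689.7, 515, 383, 1266 and 1160.5 on days 1, 3, 4, 5 and 7, a ratio of -2.09, and the inhibitor Serping1 at -2.32, while the receptor C3ar1 was at 0.87.

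Of 18 alternative activation genes 0 were higher by 2-fold or more and 5 lower, with a median of -0.47. Arg1, or arginase-1, stood at 4691 in mock and 3934, 5194, 203, 115 and 278 on days 1, 3, 4, 5 and 7. It was high in mock and on days 1 and 3 and low from day 4 on, at a day 4 ratio of -4.41. Retnla, Mgl2, Chil3 and Myc lay between -1.76 and -1.20. Egr2, a transcription factor, was at 0.98 and Clec10a at 0.41.

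Of the inflammatory mediators, NF-kB genes stood near mock, while classical activation and CXC chemokine genes leaned low. None of 14 genes of NF-kB and its inhibitors passed 2-fold (median -0.31). Of 19 genes of classical activation 0 were higher and 5 lower, beside 3.31% and 8.11% of all genes. The 5 were Irg1 at -2.64, Csf3 at -2.40, Lif at -1.44, Il6 at -1.42 and Cd40 at -1.01. Irg1, which makes itaconate, stood at 2867 in mock and 1302, 739.5, 445, 153 and 159 on days 1, 3, 4, 5 and 7. Tnf was at 4987 in mock and 5073 on day 4 and Il1b at 22311 in mock and 25029 on day 4, ratios of 0.02 and 0.17. Among chemokines Ccl3 stood at 16243 in mock and 17394, 11876, 41303, 22744 and 5439 on days 1, 3, 4, 5 and 7, highest on day 4 at 1.35. Ccl8 and Cxcl16 were higher at 1.47 and 1.24. Cxcl13 was lowest of its group at 904 in mock and 544, 72.5, 42.7, 61.4 and 186 on days 1, 3, 4, 5 and 7, a ratio of -3.93, with Ccl5, Cxcl3, Cxcl10, Ccl9 and Cxcl12 between -2.29 and -1.02. In all 2 of 11 CC and 1 of 9 CXC chemokines were higher, and 2 and 4 lower. The CXC median was -0.77, and the CC median of -0.28 changed sign with only the 6000 highest genes.

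Chemokine receptors split, with 3 of 15 higher and 5 lower. Cxcr4 stood at 403 in mock and 461, 670.5, 1400.0, 707 and 330.2 on days 1, 3, 4, 5 and 7, highest on day 4, a ratio of 1.75. Fpr1 and Fpr2, receptors of bacterial formyl peptides, were lowest of the 6 libraries at -2.63 and -1.98, and Ccr1 was at -1.25. Of 18 eicosanoid genes Hpgds, the prostaglandin D synthase, was the 1 that was higher, at 1548 in mock and 1162, 2129, 5432, 4252 and 1880.1 on days 1, 3, 4, 5 and 7, a ratio of 1.80. Ptges, the inducible prostaglandin E synthase, was at -2.27, the prostacyclin receptor Ptgir at -1.69 and Alox5 at -1.32.

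Glycolysis stood lower and mitochondrial genes near mock. Of 22 glycolysis and hypoxia genes 7 were at least 2-fold lower and none higher, with a median of -0.82, and day 4 was the lowest library for 10. Pkm, pyruvate kinase, stood at 21383 in mock and 49664, 23839, 7409, 8883 and 10427 on days 1, 3, 4, 5 and 7, a ratio of -1.53, and Gapdh at 20035 in mock and 26461, 24425, 8858, 7829.9 and 6303 on days 1, 3, 4, 5 and 7, a ratio of -1.18. Both were high through day 3 and low on day 4, and days 5 and 7 were as low or nearly so. Eno1, Slc2a1, Pgk1, Pfkp and Pfkl were between -1.37 and -1.02. None of 20 genes of the TCA cycle and none of 28 nuclear genes of the respiratory chain passed 2-fold, at medians of -0.13 and 0.18, and the second changed sign with equal totals. Of 18 genes of the unfolded protein response 3 were lower, Hyou1, Sdf2l1 and Calr, and the median was -0.66. The chaperone Hspa5 was at -0.69 and the stress factor Ddit3 at 0.60.

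Transcription factors of macrophages were mostly level, with 1 of 27 higher and 2 lower. Pparg, which responds to fatty acids, stood at 515 in mock and 1948, 316, 1091, 942 and 696 on days 1, 3, 4, 5 and 7, a ratio of 1.06 that came to 0.87 with equal totals. Bhlhe40 and Nfil3 were both at -1.28. Integrins had 4 of 12 members lower, among them Itgb2, the partner chain of CD11b, at -1.09, and Itgal and Itgb7 at -1.32 and -1.48. Of 20 apoptosis regulators Ripk3, a kinase of necroptosis, was the 1 past 2-fold, at -1.56.

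**Figure D4:**
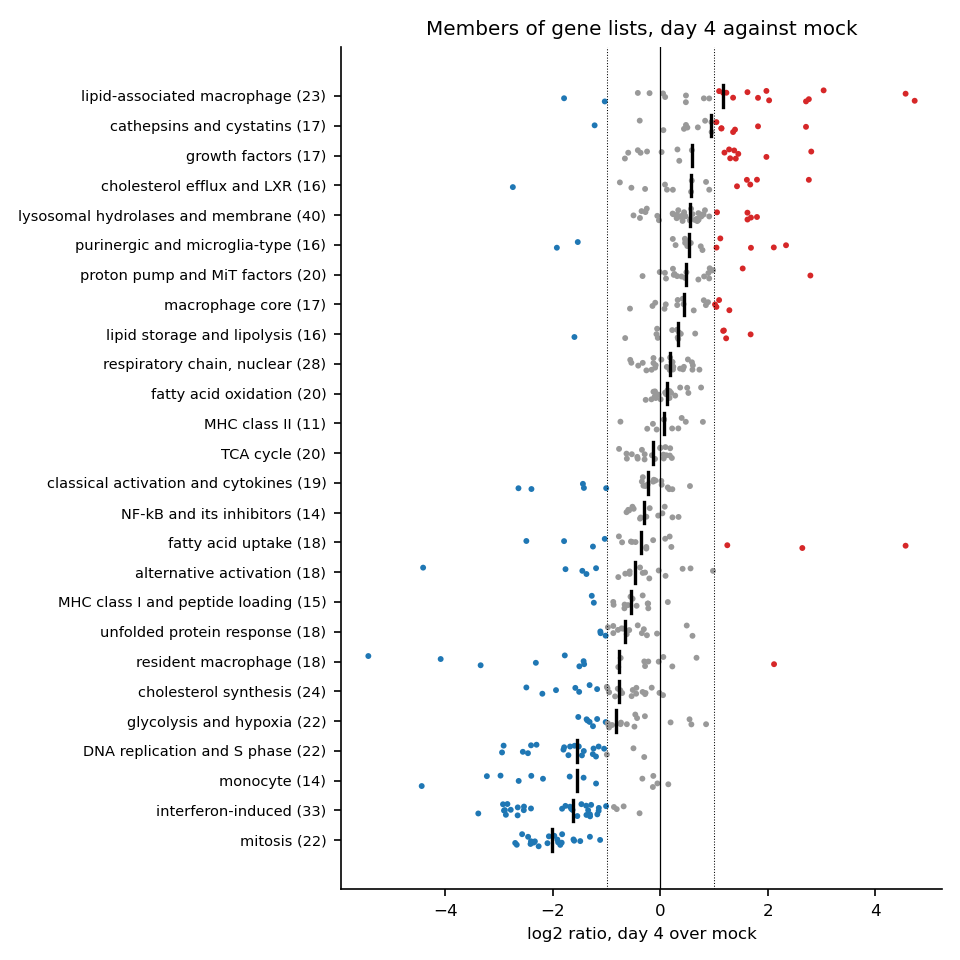
Log2 ratio of day 4 to mock (x axis) of each expressed member (points) of 26 gene lists (rows, number of members in brackets); red and blue points are at least 2-fold higher or lower, black bars are medians and dotted lines mark 2-fold. Among the 26 lists drawn, the lipid-associated list stands highest at 1.17 and the mitosis list lowest at -2.02. Lists not drawn reached further out on both sides.

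Several of the groups above took different courses over the other days, and day 4 was not the extreme library for all of them. Their values are given here as medians to the same mock library, which all 5 ratios share. For days 1, 3, 4, 5 and 7 the lipid-associated list stood at 0.34, 0.39, 1.17, 0.50 and -0.18. The interferon-induced list stood at 1.82, -1.77, -1.63, 1.09 and -0.48, so that days 3 and 4 were low and days 1 and 5 high. The mitosis list stood at -2.68, 1.56, -2.02, -2.05 and -1.04, high on day 3 alone. Cholesterol synthesis stood at 0.66, -0.20, -0.77, -0.18 and -0.12, glycolysis at 0.28, -0.11, -0.82, -0.63 and -0.64 and class II at -2.33, -1.66, 0.07, -0.03 and 0.59. Against the other libraries themselves, day 4 was nearest to its neighbours. It was 2-fold or more above day 1 for 901 genes (9.01%) and below it for 1130 (11.3%). For day 3 these counts were 323 (3.23%) and 589 (5.89%), for day 5 311 (3.11%) and 540 (5.40%) and for day 7 1159 (11.6%) and 856 (8.56%).

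Markers of other cells differed between the libraries and are given as measured. The acinar list summed to 945468 normalised counts in mock (5.63% of reads) and 69679 on day 4 (0.363%). All 19 expressed members were at least 2-fold lower, with a median of -3.84. Pnlip, pancreatic lipase, stood at 119710.1 in mock and 7811, 5077, 1854, 2970.1 and 111895 on days 1, 3, 4, 5 and 7, high in mock and on day 7 and low between, a day 4 ratio of -6.00. Cela1, Cel, Gp2, Sycn, Ctrc, Amy2b, Ctrl and Try4 were also among the 15 lowest genes, between -5.09 and -4.26, and trypsinogens and amylases have near-identical copies. With acinar, Reg, erythroid and mitochondrial genes left out, 331 genes were higher and 783 lower.

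The Reg family summed to 60525 in mock and 16892 on day 4, and endothelial genes to 1618 and 520.1. For B cells the sums were 8695 and 2285, for NK cells 4433 and 780.2, for T cells 3553 and 2674 and for red cells 1725 and 326. Cd79a of B cells was at -4.12, Gzma of NK cells at -3.11 and Col3a1 of fibroblasts at -2.22. In each of these lists the day 4 sum was below mock, beside the lower matrix, monocyte and resident genes. Their part in those results was not tested. Transcripts of the mitochondrial genome had a median of 0.27, and 78 ribosomal protein genes 0.43.

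**Figure D5:**
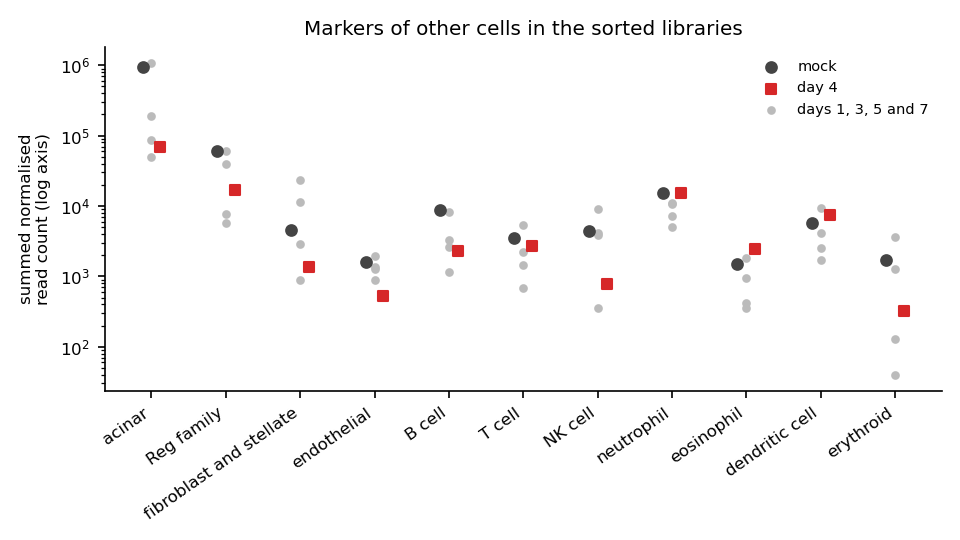
Summed normalised read count (y axis, log scale) of marker lists of other cells (x axis) in mock (black), day 4 (red squares) and the other days (grey). Day 4 lies below mock for acinar, Reg, fibroblast, endothelial, lymphocyte and erythroid lists, level with mock for neutrophils and above it for eosinophils and dendritic cells.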

How the data were processed

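RNA of sorted macrophages was sequenced in 6 libraries, prepared with a NEBNext Ultra kit per the labels' protocols. The authors deposited a normalised signal per gene: every column holds whole multiples of 1 step (100% of values whole within 0.01 reads), so each library's gene counts had been divided by a single factor, and its reads were recovered. The submitters' processing notes list Bowtie 0.12.2 and mm8, with no role. Not given in the sources used here are the gene counter, annotation, strand and handling of shared reads, which makes near-identical genes uncertain.

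Groups came from sample titles. Log2 ratios of day 4 to mock used a pseudocount of 17.8 over the 10000 genes with the highest mean (at least 74.1), counted at 2-fold. A floor of 3 reads was worth 2.86 units in mock and 3.88 on day 4. Named genes were the 15 highest and 15 lowest, the 10 with the largest margin above and below every other library, leaving out predicted genes, small RNAs, pseudogenes and receptor segments, and members of 63 gene lists. The comparison and lists were chosen with earlier results of these data known. Lists share members, and a list was described by counts and median, without a test. Counting intervals of read ratios were 95% Clopper-Pearson.

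Alternatives were other pseudocounts, filters and scalings (TMM from edgeR), counting intervals, and an edgeR 4.0.16 quasi-likelihood contrast on the recovered reads in R 4.3.3. The calculations were run on simulated data with known differences, as a check of the code alone. For the edgeR contrast the simulated spread was below that of the data and held no differences between the other days. Its outcome there does not carry over to these libraries. Promoters came from RefSeq on GRCm38.p6, which is not the build named for the files, so no other coordinates are given. Calculations ran in Python 3.11.15 with pandas 2.3.3, numpy 2.4.6 and scipy 1.17.1, and plots in matplotlib 3.10.9. Some list members are counted but not reported here by name.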

Additional observations from a re-analysis of the deposited data

How the results depend on the processing

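The counts at 2-fold stayed within 1.5 times of 331 and 811 under all scalings, both other pseudocounts, no filter, removal of the acinar, Reg, erythroid and mitochondrial genes, and the limit that the counting interval lie wholly beyond 2-fold. With the 6000 highest genes, fewer genes being tested, there were 189 higher and 395 lower, 11 above every other library and 19 below. The count above every other library was 41 with no filter, and the count below was 14 with 4 times the pseudocount and 19 with quantile normalisation; the cause was not tested. The edgeR quasi-likelihood contrast, with the spread taken from days 1, 3, 5 and 7 as 1 group on 3 residual degrees of freedom, called 0 genes higher and 0 lower of 14106. At an unadjusted p under 0.05 it had 65 higher and 79 lower. It assumes that the lone day 4 and mock libraries vary like the others, and its spread includes differences between days.

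Of 342 named genes past 2-fold, 56 stood below it under at least 1 alternative and 0 changed sign. Of 15 lists with a median past 2-fold, 2 came below it, the lipid-associated list at 0.98 with equal totals and the endothelial list at -0.84 with 4 times the pseudocount or no filter. Of 59 lists 11 changed sign, with medians between -0.28 and 0.18. Lyz2, the most abundant gene of mock, was at 0.89, but at -0.62 with quantile normalisation.

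No paired analysis was possible because each group has 1 library. For the same reason none was left out. Depth limits low genes, and the missing replicates limit all of them.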

Other observations

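Most neutrophil genes were lower in the day 4 library, with 1 abundant exception. Retnlg, a resistin-like gene of neutrophils, stood at 3522 in mock and 167, 5792, 9911, 262 and 539.7 on days 1, 3, 4, 5 and 7, a ratio of 1.49, while 7 of 9 expressed neutrophil genes were at least 2-fold lower, S100a8 at -1.41, S100a9 at -1.68 and Ltf at -2.59. The neutrophil list summed to 15306 in mock and 15481 on day 4, of which Retnlg gave 3522 and 9911. Eosinophil genes summed to 1514 and 2436. Ccr3, the eotaxin receptor, stood at 641 in mock and 61.5, 499, 1448, 168 and 606 on days 1, 3, 4, 5 and 7, a ratio of 1.15 or 0.96 with equal totals, and Siglecf and Il5ra were at 0.81 and 0.79, each highest on day 4, while Ear2, the other of the 4 expressed members, was at -0.95.

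Dendritic cell genes summed to 5819.7 in mock, 7356 on day 4 and 9275 on day 7, the highest of the libraries. Of 10 expressed members 3 were at least 2-fold higher on day 4 and 2 lower. Their median was 0.51 on day 4 and 0.65 on day 7. Flt3, the growth factor receptor of dendritic cell precursors, stood at 108 in mock and 60.3, 173, 490.4, 189 and 299.8 on days 1, 3, 4, 5 and 7, a ratio of 2.02. Cd209a and Siglech were at 1.24 and 1.05 and the cross-presenting cell marker Xcr1 at 0.99, all highest on day 4, while Ccr7 and Fscn1, of migrating dendritic cells, were at -3.18 and -1.63.

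Of 23 immediate early and heat shock genes 1 was 2-fold higher and 5 were 2-fold lower, and the median of 0.12 changed sign with equal totals. Btg2 was at 1.17, Fos at 0.91, Egr1 at 0.12 and Fosl1 at -2.42, and the heat shock genes Hspa1b and Hsph1 at -2.37 and -1.51. Below the expressed set, Apoc4, an apolipoprotein gene next to Apoe in the genome, had 0 reads in mock and 18 on day 4, at least 8.13-fold higher. Gpihbp1, the endothelial anchor of lipoprotein lipase, had 38 reads in mock and 0 on day 4, at least 9.35-fold lower. These bounds take 3 reads as the floor of the library at 0.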
